A study of Mus musculus with 3 samples.

Results

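The 8 genes described here encode the Fc receptors of mouse blood leukocytes, the proteins through which a cell senses antibody: the IgG receptors *Fcgr1*, *Fcgr2b*, *Fcgr3* and *Fcgr4*, the shared signalling chain *Fcer1g*, the IgE receptors *Fcer1a* and *Fcer2a*, and the IgM receptor *Fcmr*. They were picked by symbol from the row names of the 3 count matrices, where they are 8 of 32285 genes. The study sequenced single cells of peripheral blood mononuclear cells (PBMCs) from female C57BL/6 mice, to ask how age and glycyrrhizic acid (GA), a triterpenoid of liquorice root, act on blood immune cells. The young library came from mice of 8 weeks, the aged library from mice of 16 months, both with no treatment in the labels, and the aged-GA library from mice of 16 months that were given GA for 1 month. Young mice were bought in and aged mice were raised in the laboratory, and per the methods controls received saline by tail vein where treated mice received GA. Each group is 1 library (3 in all) and the files carry no label of the animal, so no difference between groups could be tested. Intervals below are exact 95% intervals that cover counting error only. The age, rearing, treatment and library of a group cannot be told apart.

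Fc receptors turn bound antibody into a signal. *Fcgr1* is the high-affinity IgG receptor, *Fcgr3* and *Fcgr4* are activating receptors of lower and intermediate affinity, and all 3 reach the surface and signal through the *Fcer1g* chain, whose ITAM motif recruits the kinase Syk. *Fcgr2b* is the inhibitory counterpart, which carries an ITIM motif, recruits the phosphatase SHIP1 and is the IgG receptor of B cells. *Fcer1a* is the IgE-binding chain of the high-affinity receptor on basophils and mast cells, *Fcer2a* (CD23) is the low-affinity IgE receptor of follicular B cells, and *Fcmr* is the IgM receptor of B cells.

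The matrices held 10842, 16038 and 17332 barcodes for young, aged and aged-GA, and the study's filters (200 genes or more, at most 7.5% mitochondrial UMIs) kept 8851, 10238 and 12648 cells with a median of 4671, 3810.5 and 4752 UMIs. The paper reports other numbers of cells for each group, fewer in young and aged-GA and more in aged, so the cells kept here are not its set. Of all barcodes, each pair of libraries had 50 to 62 in common. A cell was assigned to a class if it had UMIs of at least 3 distinct markers of that class and fewer than 3 of any other, which left out 514, 1263 and 1501 cells with markers of several classes. This gave 2278, 4299 and 5560 B cells, 308, 249 and 255 NK cells and 5250, 2181 and 3465 T cells in young, aged and aged-GA. Myeloid cells were scarce in the young library, with 2 classical and 47 nonclassical monocytes, 13 neutrophils and no basophils, against 434, 418, 793 and 134 in aged and 72, 170, 481 and 31 in aged-GA. A class with under 20 cells in a library was left out of every order and ratio. Between 9 and 10 of the 10 markers of nonclassical monocytes, 7 of the 8 of classical monocytes and all 10 of every other list were highest in their own class. Most of these markers also set the gates, so that outcome was largely fixed in advance and is no independent check of the classes. Levels are given as CPM, in which the UMIs summed over a class make up 1000000. T cells, which lack most of these receptors, served as the background of free RNA, although *Fcgr2b* and *Fcer1g* were uneven among Cd8 T cells (Other observations). That background was not alike in the libraries: *Lyz2*, a lysozyme of monocytes and neutrophils, stood at 0.883 CPM in young T cells, 98.4 in aged and 26.8 in aged-GA.

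The genes are clustered. In the GRCm38 (mm10) annotation of GENCODE, 6 of the 8 lie on chromosome 1, and *Fcgr2b* (chr1:170958617-170976547, minus strand), *Fcgr4* (chr1:171018920-171029761, plus), *Fcgr3* (chr1:171051174-171064935, minus) and *Fcer1g* (chr1:171229572-171234365, minus) fit within 276 kb. *Fcmr* (chr1:130865669-130880791, plus) and *Fcer1a* (chr1:173221284-173227214, minus) lie outside that span on the same chromosome, *Fcgr1* is at chr3:96282909-96293969 (minus) and *Fcer2a* at chr8:3681737-3694175 (minus). *Fcgr2b* and *Fcgr3* are close copies in part: 13.4% of the 31-base words of the annotated *Fcgr3* transcripts also occur in *Fcgr2b*. In the last 500 bases, where the 3′ chemistry places its reads, this share was 0.52% for *Fcgr3* and 3.06% for *Fcgr2b*, and no other pair of the 8 shared a 31-base word.

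All 8 members had a promoter (250 bases before to 50 after the start site) in the RefSeq table of GRCm38.p6. The letters GAGGAAG, the core that ETS-family factors such as PU.1 bind, were searched on both strands and occurred in 13.6% of 32851 promoters, and in 4 of the 11 promoters of the members, which belonged to the 3 activating IgG receptors *Fcgr1*, *Fcgr3* and *Fcgr4*. The EBF1-type letters TCCCNNGGG, which do not overlap that core, occurred in 6.56% of all promoters and in none of the members. The 3 promoters are shown because they hold the core. *Fcgr2b* and *Fcer1g*, which were also found in the monocytes described next, had no such site. Both *Fcgr3* promoters overlap and hold the same site. Capitals mark the core, which reads CTTCCTC on the gene's strand in each. A match is a description of letters, not of a bound site.
Fcgr1 (chr3:96293920-96294219, minus strand): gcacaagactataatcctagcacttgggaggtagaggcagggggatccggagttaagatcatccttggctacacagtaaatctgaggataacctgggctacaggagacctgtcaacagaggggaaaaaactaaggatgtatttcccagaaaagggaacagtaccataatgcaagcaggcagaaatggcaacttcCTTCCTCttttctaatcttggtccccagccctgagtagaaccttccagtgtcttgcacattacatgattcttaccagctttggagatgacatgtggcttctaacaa
Fcgr3 (chr1:171059354-171059653, minus strand): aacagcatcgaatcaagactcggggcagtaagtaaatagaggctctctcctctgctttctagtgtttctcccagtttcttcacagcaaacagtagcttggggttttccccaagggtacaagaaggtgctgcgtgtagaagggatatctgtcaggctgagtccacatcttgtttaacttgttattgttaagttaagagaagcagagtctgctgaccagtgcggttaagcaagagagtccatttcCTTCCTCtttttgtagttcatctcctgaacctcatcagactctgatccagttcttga
Fcgr4 (chr1:171018676-171018975, plus strand): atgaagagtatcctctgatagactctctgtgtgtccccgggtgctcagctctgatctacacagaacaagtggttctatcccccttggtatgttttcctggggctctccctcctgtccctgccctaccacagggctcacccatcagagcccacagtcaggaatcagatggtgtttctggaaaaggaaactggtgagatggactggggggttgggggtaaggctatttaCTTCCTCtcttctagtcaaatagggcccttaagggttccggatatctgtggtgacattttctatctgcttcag
The first base of the core lay at -56 from the start site in *Fcgr1*, at -7 in the *Fcgr3* promoter shown, at -16 in a second *Fcgr3* promoter (chr1:171059345-171059644) and at -23 in *Fcgr4*.

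The activating IgG receptors separated the monocyte subsets and neutrophils. *Fcgr1* was highest in classical monocytes, at 169 CPM in aged (95% interval 157 to 182, 728 UMIs) and 124 in aged-GA (99.2 to 153, 86 UMIs). Nonclassical monocytes, the patrolling subset, carried 34.6, 28.6 and 27.4 CPM of *Fcgr1* in young, aged and aged-GA, and neutrophils 1.66 and 1.33 in aged and aged-GA, so the classical level was separated from every other class by its interval. For *Fcgr4* the monocyte subsets had the opposite order. Nonclassical monocytes held 502 CPM (415 to 602) in young, 498 (469 to 528) in aged and 472 (429 to 517) in aged-GA, where the 3 intervals overlapped. Neutrophils held 115 and 107 CPM of *Fcgr4* in aged and aged-GA, and classical monocytes 45.8 and 30.3. Within the same cells, which cancels depth and scaling, there were 3.7 *Fcgr1* UMIs for each *Fcgr4* UMI in aged classical monocytes (3.15 to 4.35) and 4.1 in aged-GA (2.52 to 6.95), but 0.069, 0.0575 and 0.0582 in young, aged and aged-GA nonclassical monocytes. The swap between subsets was thus present in both libraries that had both.

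*Fcgr3*, the low-affinity activating receptor, was the most widespread of the 3. It stood at 383 CPM in aged classical monocytes (365 to 402) and 371 in aged-GA (327 to 419). Neutrophils followed with 309 (287 to 332) and 313 (285 to 342), so the order of these classes was separated by the intervals in aged and not in aged-GA. Basophils held 137 and 223 CPM in aged and aged-GA and nonclassical monocytes 173, 130 and 141 in young, aged and aged-GA. These classes overlapped in both libraries. NK cells, in which this receptor is the one that drives antibody-dependent killing, were lower, at 33.5, 33.3 and 46.5 CPM, and B cells were at the level of the T cell background, with no UMI in young and 2.53 and 0.879 CPM in aged and aged-GA beside 1.86 and 0.955 in T cells. Neutrophils and nonclassical monocytes again differed in the balance with *Fcgr4*: 0.374 and 0.341 *Fcgr4* UMIs for each *Fcgr3* UMI in aged and aged-GA neutrophils, 2.9, 3.83 and 3.34 in young, aged and aged-GA nonclassical monocytes, and 0.12 and 0.0817 in aged and aged-GA classical monocytes.

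In basophils 2 of the activating receptors were not detectable at this depth. No UMI of *Fcgr1* or *Fcgr4* was found in 134 aged and 31 aged-GA basophils, which allows up to 8.88 and 41.2 CPM, while *Fcgr3* was present in 31.3% and 41.9% of them. Among NK cells, *Fcgr4* had 0, 2 and 1 UMIs and *Fcgr1* 0, 1 and 1 in young, aged and aged-GA.

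**Figure D1:**
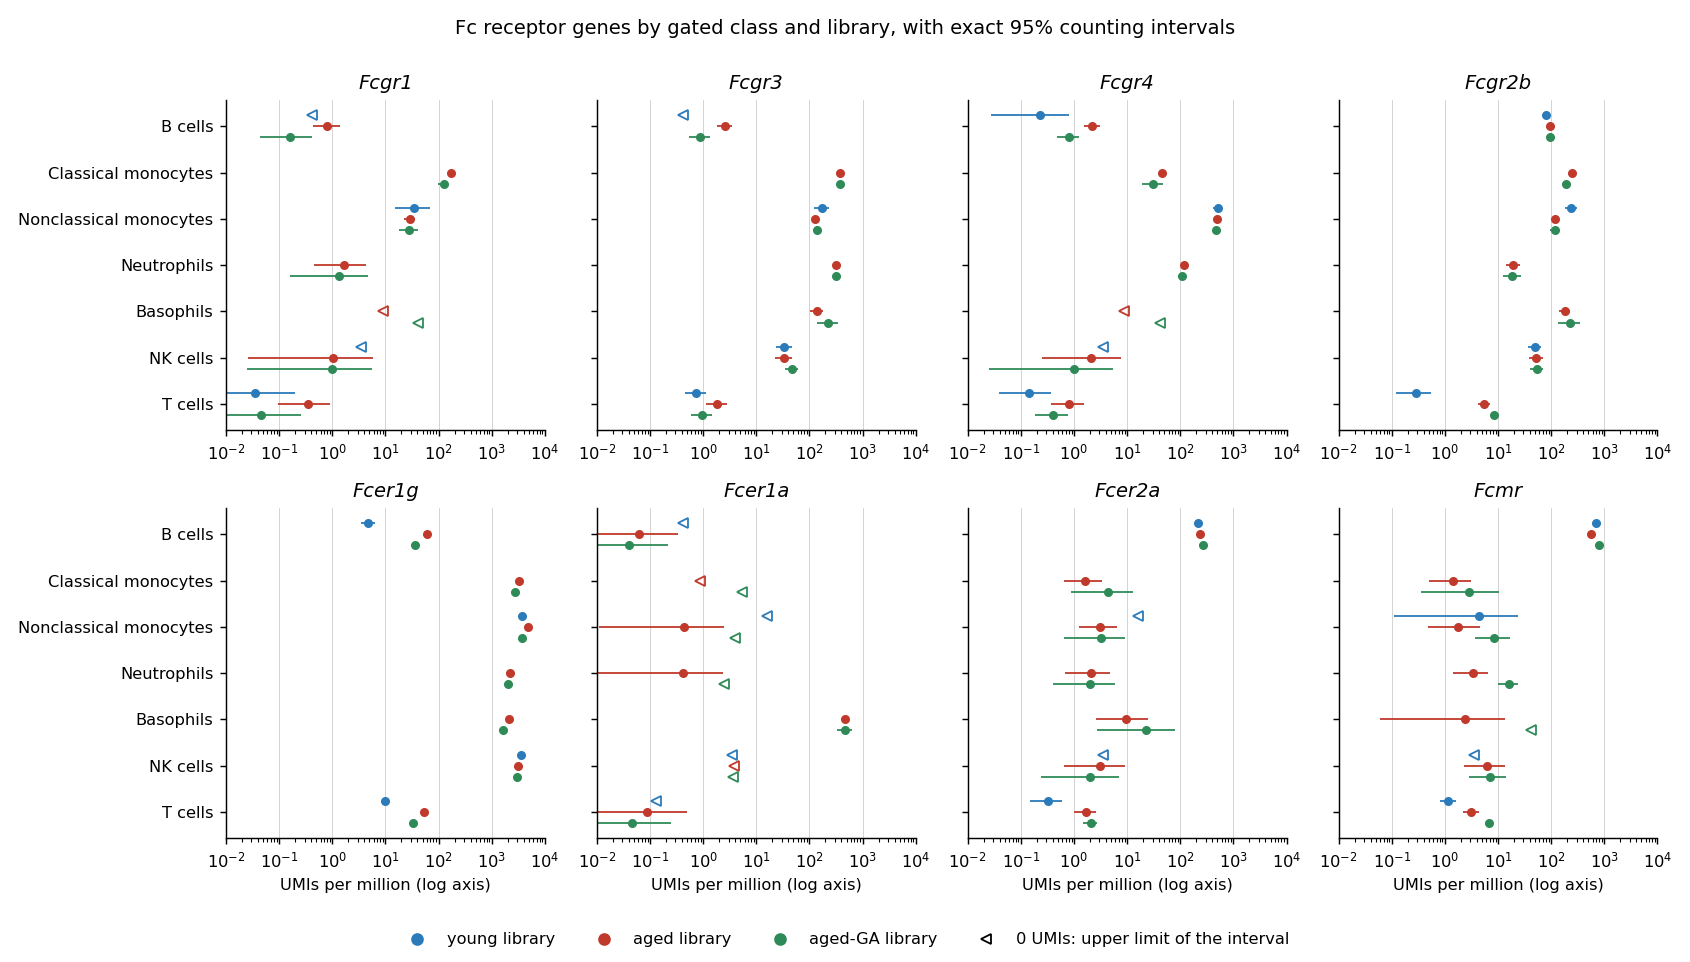
CPM (log axis) of each Fc receptor gene in the gated classes of the young (blue), aged (red) and aged-GA (green) libraries; points are class sums, bars exact 95% counting intervals, open triangles the upper limit where no UMI was found, and classes of under 20 cells are left out. *Fcgr1* is highest in classical and *Fcgr4* in nonclassical monocytes. *Fcer1a* stands in basophils and *Fcer2a* and *Fcmr* stand in B cells. For *Fcer1a*, *Fcer2a* and *Fcmr* the other classes are far lower.

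The share of cells with a UMI followed the same pattern. *Fcgr4* was seen in 83%, 79.9% and 82.9% of nonclassical monocytes, against 0.0571%, 0.229% and 0.26% of T cells, at median depths of 4259, 4286 and 4500.5 UMIs against 5035, 4664 and 5862. With each cell thinned to 500 UMIs, a depth every cell reached, the shares were 23.4%, 22.5% and 16.5% in nonclassical monocytes, with overlapping intervals. *Fcgr1* was seen in 73.5% and 59.7% of aged and aged-GA classical monocytes, which after thinning were 8.53% (6.07 to 11.6) and 2.78% (0.338 to 9.68), again overlapping.

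The inhibitory receptor *Fcgr2b* was found in every class of 20 cells or more, and its balance with *Fcgr3* differed widely between them. Its level was 249 and 192 CPM in aged and aged-GA classical monocytes, 238, 118 and 116 in young, aged and aged-GA nonclassical monocytes, 181 and 223 in aged and aged-GA basophils, and 79.5, 96.6 and 94.4 in B cells. NK cells held 48.9, 52.1 and 53.4 CPM and neutrophils 19.5 and 18.6 in aged and aged-GA. In the aged library all neighbours in this order were separated by their intervals, whereas in aged-GA basophils overlapped classical monocytes, and nonclassical monocytes overlapped B cells.

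Neutrophils leaned most to the activating side, with 0.0632 *Fcgr2b* UMIs for each *Fcgr3* UMI in aged (0.046 to 0.0849) and 0.0593 in aged-GA (0.039 to 0.0869). Classical monocytes had 0.65 (0.601 to 0.702) and 0.518 (0.417 to 0.64), and nonclassical monocytes 1.38 (0.898 to 2.12), 0.905 (0.764 to 1.07) and 0.821 (0.632 to 1.06) in young, aged and aged-GA. Basophils stood at 1.32 and 1 in aged and aged-GA and NK cells at 1.46, 1.56 and 1.15 in the 3 libraries, all with intervals that held 1. In B cells the ratio was 38.2 (28.1 to 53.5) in aged and 107 (70.8 to 172) in aged-GA, and the young B cells had 702 *Fcgr2b* UMIs and no *Fcgr3* UMI. Such ratios compare classes; between 2 genes they also carry how well each transcript is captured, and the few *Fcgr3* UMIs of B cells were at the T cell level.

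**Figure D2:**
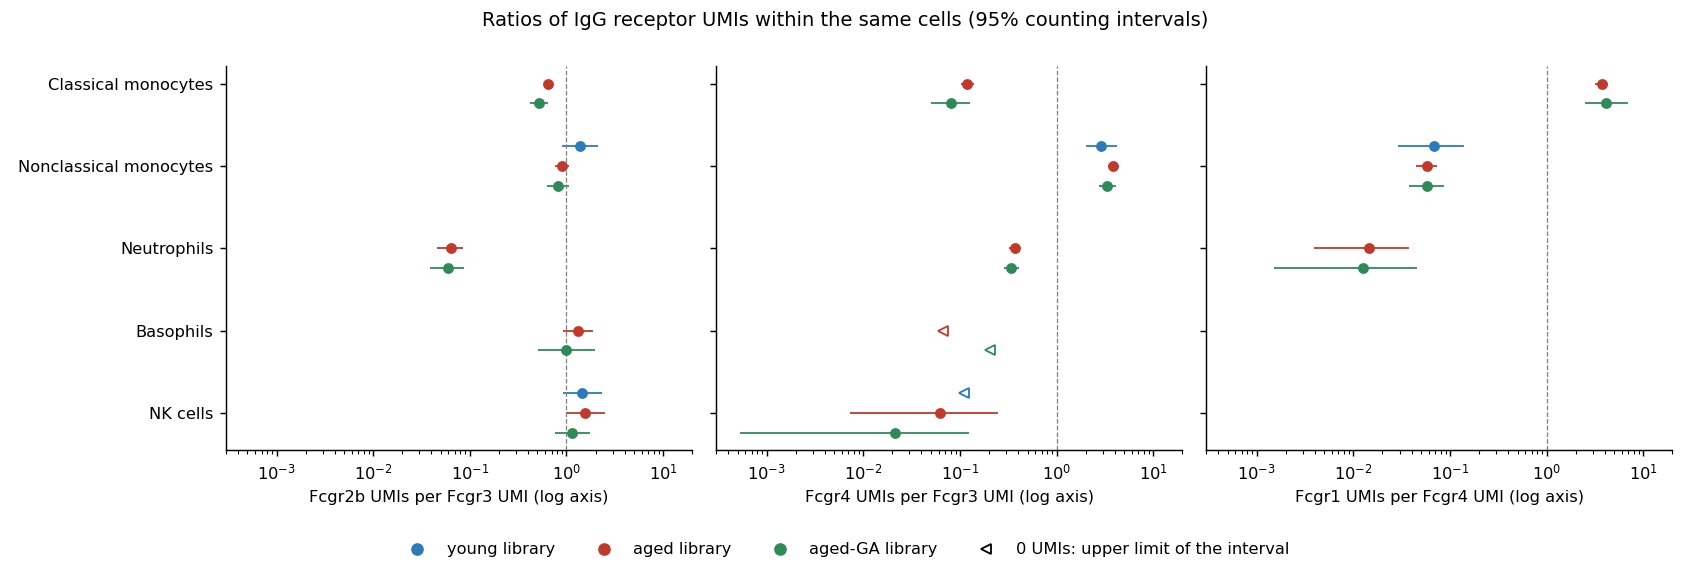
Ratios of UMIs of IgG receptor genes counted in the same cells (log axes), for *Fcgr2b* to *Fcgr3* (left), *Fcgr4* to *Fcgr3* (middle) and *Fcgr1* to *Fcgr4* (right), by class and library; bars are exact 95% counting intervals, the dashed line marks equal counts, and triangles are upper limits. Neutrophils sit near 0.06 on the left, and the monocyte subsets sit on opposite sides of 1 on the right, at 3.7 and 0.0575 in the aged library.

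*Fcer1g*, the chain that *Fcgr1*, *Fcgr3*, *Fcgr4* and *Fcer1a* share, had the highest level of any member in each myeloid class and in NK cells. In B cells *Fcmr*, *Fcer2a* and *Fcgr2b* were higher. Over all kept cells *Fcer1g* was above *Fcmr* in aged and below it in young and aged-GA. Nonclassical monocytes carried 3655, 4712 and 3646 CPM in young, aged and aged-GA, and it was seen in every one of them. NK cells carried 3484, 3108 and 3005 CPM, classical monocytes 3320 and 2771 in aged and aged-GA, neutrophils 2209 and 2060, and basophils 2128 and 1620. B cells were at 4.76, 59.4 and 36.8 CPM, beside 9.96, 52.2 and 32.4 in T cells. The B cell and T cell intervals overlapped at their edges in aged (55.7 to 63.3 against 48 to 56.6) and aged-GA (34.4 to 39.2 against 30 to 34.8), and in young B cells were the lower.

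The partner subunits differed in the classes that carried them. *Ms4a2*, the beta chain of the high-affinity IgE receptor, stood at 583 and 748 CPM in aged and aged-GA basophils and at or below 0.431 CPM in every other class. *Cd247*, the zeta chain that NK cells use beside the *Fcer1g* chain, was at 164, 120 and 110 CPM in young, aged and aged-GA NK cells and at 22.3 CPM or less in myeloid cells and B cells. It was not particular to NK cells, as T cells held 180, 172 and 175 CPM. *Tyrobp* (DAP12), an ITAM chain of other myeloid and NK receptors, lay between 2416 and 3935 CPM in NK cells and in all myeloid classes of 20 cells or more.

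*Fcer1a* was a basophil gene in these blood cells. It stood at 457 CPM in aged (395 to 527, 190 UMIs) and 458 in aged-GA basophils (329 to 621, 41 UMIs), and at most 0.44 CPM elsewhere. Basophils, 134 of 10238 aged cells, held 73.9% of that library's *Fcer1a* UMIs, and in aged-GA 48.8%. The young library, which had no basophil, had no *Fcer1a* UMI in any barcode. A UMI was found in 58.2% and 71% of basophils, or 19.4% and 12.9% after thinning, at median depths of 2564 and 2016 UMIs, beside 1 UMI in each T cell class of aged and aged-GA. Haemoglobin transcripts made up 20.5% and 16.8% of basophil UMIs, the most of the 7 classes compared. With CPM taken outside haemoglobin, mitochondrial, ribosomal protein and immunoglobulin genes, *Fcer1a* stood at 682 and 663 CPM in aged and aged-GA basophils.

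*Fcer2a* and *Fcmr* marked B cells. *Fcer2a* stood at 219 (209 to 229), 234 (227 to 242) and 264 (258 to 271) CPM in young, aged and aged-GA B cells, and B cells held 83.4%, 87.3% and 83.5% of each library's UMIs of the gene. It was seen in 48.3%, 50.5% and 59% of B cells and after thinning in 10.6%, 12.5% and 13.2%, against 0.171%, 0.871% and 1.27% of T cells before thinning. *Fcmr* was higher, at 709 (691 to 726), 558 (547 to 570) and 786 (775 to 797) CPM, so the aged library was the lowest and aged-GA the highest with separate intervals. After thinning, *Fcmr* was seen in 30% (28.1 to 32), 24.4% (23.2 to 25.8) and 32.4% (31.2 to 33.6) of B cells, again lowest in aged, with young and aged-GA overlapping. In T cells it was seen in 0.0571%, 0.229% and 0.346% after thinning. No other class of 20 cells or more was above 22.3 CPM of *Fcer2a* or 15.9 CPM of *Fcmr*.

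At the level of the whole library the myeloid members differed widely between libraries. Young classical monocytes and neutrophils were under 20 cells each, so *Fcgr1* and *Fcgr3* had no young level in those classes to set beside this. Over all kept cells *Fcgr1* was at 0.352, 30.1 and 3.76 CPM in young, aged and aged-GA, *Fcgr3* at 3.38, 93.2 and 23.8, *Fcgr4* at 4.46, 48.1 and 14.9 and *Fcer1g* at 129, 1139 and 306. *Fcgr4* moved by that much while its level in nonclassical monocytes stayed between 472 and 502 CPM, and those monocytes were 0.531%, 4.08% and 1.34% of kept cells. The source of *Fcer1g* moved too: NK cells held 58.6% of the young library's UMIs, 4.87% of the aged and 13.1% of the aged-GA. The 7 classes together held 57.2% to 84.9% of a member's UMIs in young, 50.3% to 88.3% in aged and 42.1% to 84.2% in aged-GA, and the remainder lay in cells with markers of several classes, of other classes or of none.

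The comparison of aged with young addresses what differs with age inside a cell class. It could be made for B cells, nonclassical monocytes and NK cells, for members with at least 100 UMIs over both libraries. Of 10 pairs of member and class, 2 were past 2-fold, beside 3.88% of all genes in B cells, 5.26% in nonclassical monocytes and 2.64% in NK cells. *Fcgr2b* was lower in aged nonclassical monocytes, at 118 CPM (104 to 133) against 238 (179 to 310) in young, a ratio of 0.494 (0.368 to 0.672). The young value came from 55 UMIs in 28 of 47 cells, at most 6 in a cell, and the aged value from 267 UMIs in 150 of 418 cells. After thinning, *Fcgr2b* was seen in 10.6% of the young (3.55 to 23.1) and 7.18% of the aged cells (4.89 to 10.1), so the shares at equal depth overlapped. *Fcgr4* and *Fcgr3* in the same cells had ratios of 0.991 (0.818 to 1.21) and 0.75 (0.538 to 1.07), and *Fcer1g* 1.29 (1.2 to 1.38). The log2 ratio of *Fcgr2b* was -1.01 and lay between -1.08 and -0.85 under 12 other settings, of which 6 kept it past 2-fold. The summed B cell markers in these monocytes, which would bring *Fcgr2b* with them, reached 60.6 CPM in the young and 92.9 in the aged library; their part was not tested.

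The other pair past 2-fold was *Fcer1g* in B cells, 12.5-fold higher in aged (9.16 to 17.4). In T cells, where 7.93% of genes were past 2-fold, the same gene was 5.24-fold higher (4.54 to 6.06), and *Lyz2* in B cells stood at 2.61 CPM in the young and 156 in the aged library; the part of free RNA in the B cell value was not tested. The B cell genes themselves moved little. *Fcmr* had a ratio of 0.787 (0.762 to 0.813), *Fcgr2b* 1.21 (1.11 to 1.33) and *Fcer2a* 1.07 (1.01 to 1.13), where the median log2 ratio of all genes in B cells was 0.18. Relative to that median *Fcer2a* was at -0.09, *Fcgr2b* at 0.09 and *Fcmr* at -0.53 on the log2 scale, so the direction of *Fcer2a* depended on the scaling. In NK cells *Fcer1g* had a ratio of 0.892 (0.85 to 0.937) and *Fcgr2b* 1.07 (0.707 to 1.61).

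The comparison of aged-GA with aged addresses what differs with treatment, which cannot be told apart from the library. It shares the aged library with the comparison above. None of 20 pairs was past 2-fold, beside 0.249% of all genes in B cells, 1.25% in classical monocytes, 0.444% in nonclassical monocytes, 1.06% in neutrophils, 3.5% in basophils and 0.413% in NK cells. With no replicate this count has no test. *Fcmr* was 1.41-fold higher in aged-GA B cells (1.37 to 1.45), and its log2 ratio of 0.49 stayed between 0.43 and 0.52 under 12 other settings. *Fcer2a* was 1.13-fold higher (1.08 to 1.17), while *Fcgr2b* had a ratio of 0.977 (0.917 to 1.04). *Fcer1g* in B cells had a ratio of 0.619 (0.565 to 0.678), which was 0.62 (0.555 to 0.693) in T cells.

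In classical monocytes, from 434 and 72 cells, the ratios were 0.733 for *Fcgr1* (0.58 to 0.918), 0.771 for *Fcgr2b* (0.639 to 0.924), 0.835 for *Fcer1g* (0.796 to 0.876), 0.662 for *Fcgr4* (0.401 to 1.04) and 0.968 for *Fcgr3* (0.846 to 1.1). The first 3 intervals lay below 1. The share of all genes with such an interval is not given, so this count is not a result about the members. In nonclassical monocytes *Fcer1g* had a ratio of 0.774 (0.744 to 0.804), while those of *Fcgr2b*, *Fcgr3* and *Fcgr4* were 0.987, 1.09 and 0.947 with intervals that held 1. In neutrophils *Fcgr3* had a ratio of 1.01 (0.9 to 1.14), *Fcgr4* 0.924 (0.756 to 1.13) and *Fcer1g* 0.933 (0.892 to 0.975), where the median log2 ratio of all genes was 0.14, and in basophils *Fcer1a* had 1 (0.696 to 1.41) and *Fcer1g* 0.761 (0.634 to 0.908). All 6 ratios of *Fcer1g*, from 0.619 to 0.967, were below 1, and that of NK cells, 0.967 (0.919 to 1.02), held 1. The 6 come from the same 2 libraries, and the lowest, in B cells, was at the ratio of the T cell background, 0.62. The share of all genes below 1 is not given, so this count is not a result about the gene.

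**Figure D3:**
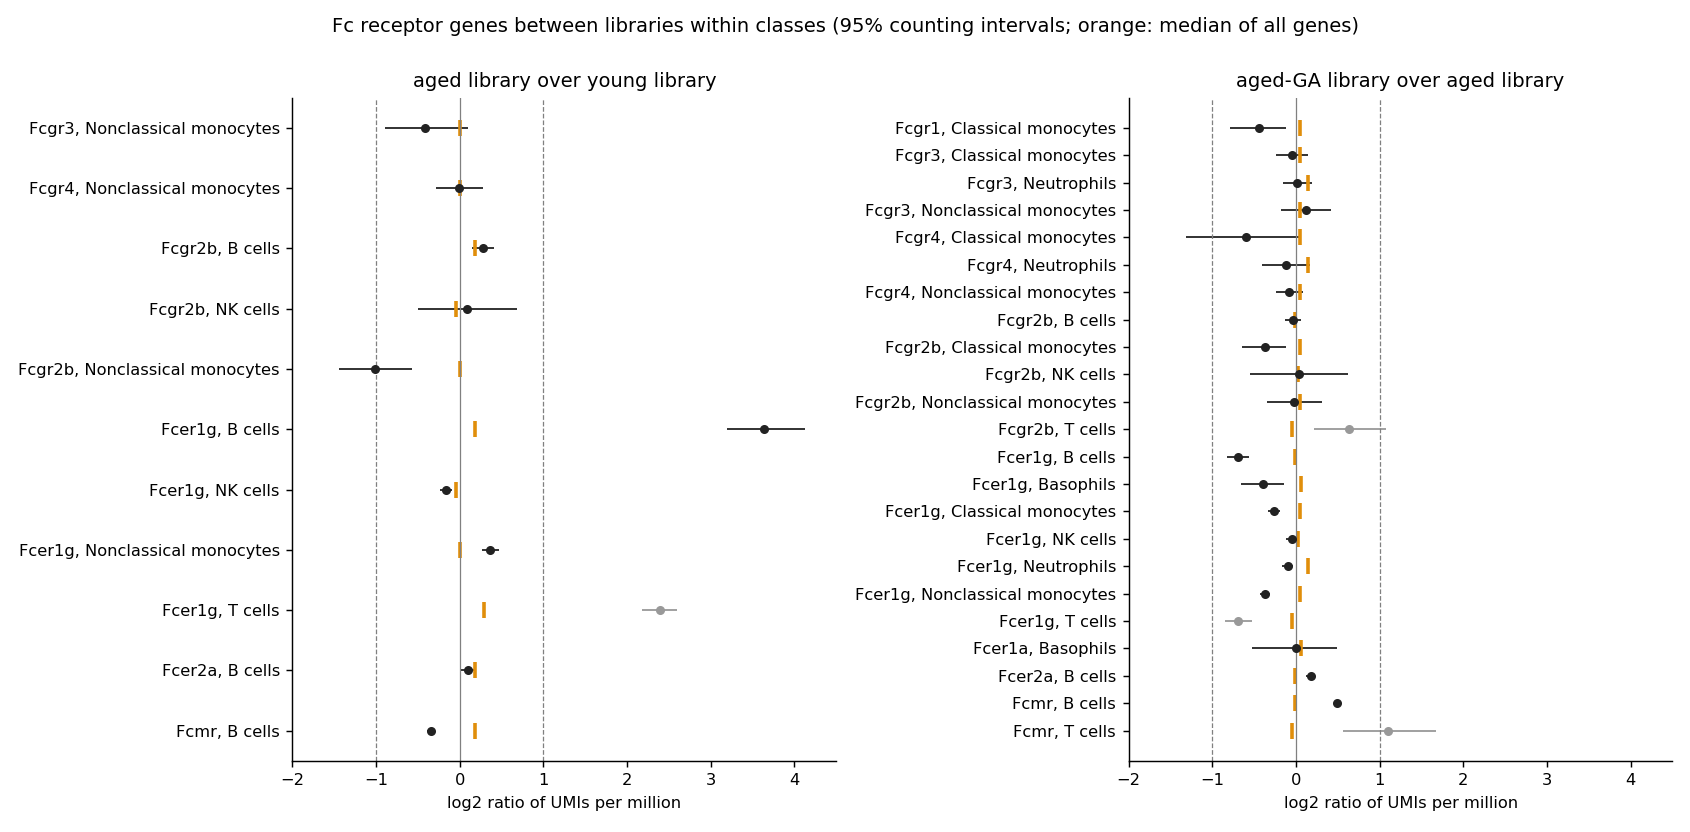
The log2 ratio of CPM, with no pseudocount, for each member and class tested, aged over young (left) and aged-GA over aged (right); bars are exact 95% counting intervals, orange ticks the median of all genes tested in the class, dashed lines 2-fold, and grey points T cells. On the left, *Fcer1g* in B cells, *Fcer1g* in T cells (5.24-fold) and *Fcgr2b* in nonclassical monocytes are past a dashed line. On the right the only point past a dashed line is *Fcmr* in T cells, at 2.14-fold from 146 and 35 UMIs.

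B cells were not uniform for these genes. They were split by a list of 8 genes of atypical and marginal zone-like B cells (*Fcrl5*, *Zbtb20*, *Mzb1*, *Tbx21*, *Itgax*, *Zeb2*, *Ahnak*, *Cd9*). Cells with UMIs of 2 or more of them, at median depths of 3871, 3575 and 4194.5 UMIs against 3233.5, 2947 and 3542 in the others, had less *Fcer2a* in all 3 libraries, with ratios of 0.809 (0.737 to 0.889), 0.695 (0.65 to 0.742) and 0.762 (0.726 to 0.8) in young, aged and aged-GA. *Fcgr2b* was higher in them, with ratios of 1.27 (1.09 to 1.48), 1.39 (1.26 to 1.54) and 1.55 (1.42 to 1.69), and *Fcmr* was close to even, at 1.02, 0.954 and 1.08.

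Cells with 4 or more of the list, a limit chosen after the data were seen, numbered 76, 219 and 368 and differed more. Their median depths were 6970.5, 6242 and 6458 UMIs, against 3233.5, 2947 and 3542 in cells with 0 or 1. The part of depth in these differences was not tested. *Ahnak*, 1 gene of the list, stood at 1001 CPM in aged classical monocytes and 993 in aged NK cells, against 118 in aged B cells. *Fcer2a* stood at 91, 83.6 and 107 CPM in the cells with 4 or more, against 238, 274 and 303 in cells with 0 or 1. *Fcgr2b* stood at 121, 200 and 180 CPM, against 71.5, 81.5 and 72.8. *Fcer1g* stood at 31.4 (18.9 to 49.1), 209 (187 to 233) and 166 (152 to 182) CPM, against 1.95, 35 and 13.4. This was 5.98-fold in aged (5.1 to 7.01) and 12.4-fold in aged-GA (10.3 to 15). Other transcripts of myeloid cells were also uneven in these cells. In young, *Lyz2* stood at 13.2 CPM (5.72 to 26.1) against 1.95 (0.934 to 3.58), *Tyrobp* was 2.56-fold and *S100a8* had no UMI against 2.73 CPM. *Lyz2* was 1.93-fold and 1.63-fold, *Tyrobp* 2.36-fold and 1.99-fold, and the neutrophil gene *S100a8* 0.505-fold and 0.538-fold in aged and aged-GA. *Cd79a*, the B cell receptor chain, stood at 2885 and 3465 CPM in them, against 3361 and 3640.

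**Figure D4:**
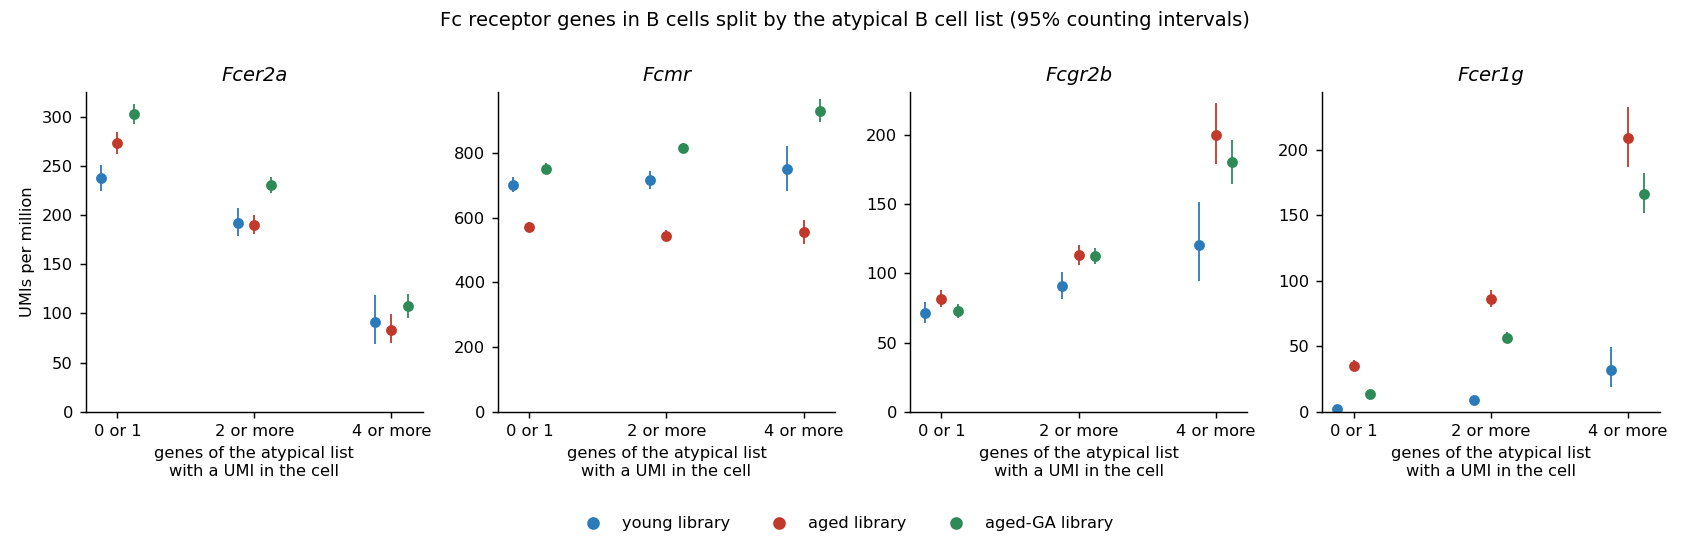
CPM of *Fcer2a*, *Fcmr*, *Fcgr2b* and *Fcer1g* in B cells with UMIs of 0 or 1, 2 or more, and 4 or more genes of the atypical list (the last is part of the second), for the young (blue), aged (red) and aged-GA (green) libraries, with exact 95% counting intervals. In all 3 libraries *Fcer2a* is lower and *Fcgr2b* and *Fcer1g* are higher to the right.

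Neutrophils also differed among themselves. Those with UMIs of 2 or more granule or cycling genes (*Ngp*, *Camp*, *Ltf*, *Chil3*, *Mki67*, *Elane*, *Mpo*), 92 aged and 52 aged-GA cells, had less *Fcgr3* than the other neutrophils: 221 against 340 CPM in aged, a ratio of 0.65 (0.537 to 0.783), and 216 against 345 in aged-GA, a ratio of 0.625 (0.486 to 0.794). *Fcgr4* had ratios of 0.532 (0.377 to 0.737) and 0.766 (0.506 to 1.13), the second of which held 1. *Fcer1g* was nearer to even, at 0.941 and 0.907. The granule-rich cells were deeper, with medians of 6695 and 6942 UMIs against 2175 and 2298, and *S100a8* took 2.64 and 3.39 times the share of their UMIs, which lowers the share left for other genes; its part in these ratios was not tested.

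The signalling partners were described by lists. Of 18 kinases and adaptors of ITAM signalling, *Syk*, the kinase that binds the phosphorylated chain, was at 487 CPM in aged B cells, 352 in neutrophils, 243 in nonclassical and 204 in classical monocytes. *Fgr*, a Src-family kinase of myeloid cells, was at 407 CPM in aged nonclassical monocytes, 239 in neutrophils and 180 in classical monocytes. In aged over young, 1 of 16 tested in B cells (*Fgr*), none of 15 in nonclassical monocytes and 1 of 9 in NK cells (*Lcp2*, an adaptor) were past 2-fold, all higher, with median log2 ratios of 0.45, 0.16 and 0.48 beside 0.18, 0.01 and -0.04 over all genes, of which 3.88%, 5.26% and 2.64% were past 2-fold. *Fgr* stood at 2.95 and 8.63 CPM in young and aged B cells, and the part of free RNA in these values was not tested. In aged-GA over aged, none was past 2-fold in B cells (17 tested), classical monocytes (14), nonclassical monocytes (15), neutrophils (13) or NK cells (10), where 0.249%, 1.25%, 0.444%, 1.06% and 0.413% of all genes were.

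Of 12 phosphatases and receptors on the inhibitory side, 3 of 9 tested were past 2-fold in aged over young nonclassical monocytes, all higher: *Ptpn11* (SHP2), *Pecam1* and *Dok1*, with log2 ratios of 1.64, 1.22 and 1.28 from 6, 13 and 4 young UMIs, and the interval of *Dok1* held 0. The median of the list was 0.62 there, beside 0.01 over all genes, of which 5.26% were past 2-fold. In B cells, beside 3.88% of all genes, 1 of 9 was past 2-fold, *Cd22*, an inhibitory lectin that was among the gate markers, with levels of 102 CPM in the young and 252 in the aged library. In aged-GA over aged, 1 of 11 was past 2-fold in B cells beside 0.249% of all genes, *Cd300a*, at 4.01 and 1.4 CPM, and none in classical monocytes, nonclassical monocytes or neutrophils. *Cd300a* stood at 339 and 493 CPM in aged classical and nonclassical monocytes, and the part of free RNA in its B cell values was not tested. *Lilrb4a* stood at 1050 CPM in aged basophils and 520 in aged neutrophils.

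Among the ligand genes, the immunoglobulin heavy chains of B cells, 3 of 5 tested were past 2-fold in aged over young, beside 3.88% of all genes, all higher: *Igha* at 5.78 and 154 CPM, *Ighg2b* at 2.95 and 24.8 and *Ighg3* at 4.87 and 14.3. *Igha* was also higher in T cells, at 0.282 and 21.2 CPM. In aged-GA over aged 1 of 7 was past 2-fold, beside 0.249% of all genes, *Igha*, at 154 and 42.2 CPM. *Ighm*, the chain of the ligand of the *Fcmr* receptor, was at 2617, 3075 and 3036 CPM in young, aged and aged-GA B cells. Of 9 other receptors of immunoglobulin, *Fcrla* (365, 282 and 293 CPM) and *Fcrl1* (77.6, 102 and 102 CPM) were B cell genes, and *Fcgrt*, the neonatal Fc receptor that recycles IgG, was at 73.6, 82.8 and 111 CPM in nonclassical monocytes; none of 5 and none of 6 tested in B cells was past 2-fold in the respective comparisons, beside the same shares of all genes. Of the 3 partner subunits, *Tyrobp* was the only gene tested in B cells in aged over young and was at 32.6 and 67.2 CPM, and at 4.41 and 35.6 in T cells.

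Genes with the pattern most like each member were sought over 18 pairs of class and library, among 5090 genes other than the gate markers, by Pearson's r of log2(CPM + 1). The pairs share 3 libraries and their free RNA, so r is a description. *Fcer1a* was closest to *Ms4a2* (0.997), the cytokine gene *Il6* (0.996) and *Il1rl1* (0.964), which encodes the interleukin 33 receptor. *Fcer1g* was closest to *Itgam* (0.985) and *Tyrobp* (0.97), *Fcgr1* to *Ifi207*, *Abca9* and *Ppfia4* (0.985 to 0.989), and *Fcgr4* to *Pilrb1*, *Slc11a1* and *Gm31814* (0.979 to 0.988). *Fcgr3* was closest to *Trf* (0.976), *Mir22hg* (0.968) and *Fes* (0.964). *Fcmr* was closest to *Spib* (0.961), *Blnk* (0.958) and *Snn* (0.952), and *Fcer2a* to *Vpreb3* (0.966), *Iglc2* (0.957) and *H2-DMb2* (0.954). *Fcgr2b* had the least close neighbours, *Cbfa2t3*, *Serinc3* and *Atf6* (0.878 to 0.889). Among the members, *Fcer1g* and *Fcgr3* (0.922) and *Fcer2a* and *Fcmr* (0.84) were the closest pairs.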

How the data were processed

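Droplet single-cell RNA-seq (10x 3′ chemistry) of PBMCs gave 3 matrices of UMI counts per gene and barcode, 1 for each of young, aged and aged-GA. The deposited counts are not normalized; the authors made them with Cell Ranger on mm10 (the matrix headers name version 5.0.0, the methods another). The members and lists were chosen with earlier results of these data known. Cells were kept by the study's filters: 200 genes or more, at most 90% of the largest gene number and at most 7.5% mitochondrial UMIs. Cells were gated by at least 3 distinct markers of a single class, and widely spread markers such as *Lyz2* were taken out of the gates after their distributions were seen. Monocytes were split by at least 5 genes of a subset list. Doublets were removed only where 2 gates were passed. UMIs were summed per class and library; each group being a single library, differences have intervals and no test, and a gene with 100 UMIs or more over both libraries was called past 2-fold on the log2(CPM + 1) scale. Intervals are exact Poisson, Clopper-Pearson and conditional binomial (SciPy 1.17.1). Named genes are the members, 5 pathway lists and the 3 genes most like each member. The values of 1 gene of the lists, which is included in the counts, are not reported here. TMM factors came from edgeR 4.0.16 and doublet scores from Scrublet in scanpy 1.11.5. The steps were tested on simulated data.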

Additional observations from a re-analysis of the deposited data

Results flagged for a closer look

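Barcodes with fewer than 200 genes, which enter none of the comparisons, still carried Fc receptor UMIs above the limit of 3 that a count of 0 allows. Over the 8 members there were 12 UMIs in 971 young barcodes, 724 in 5466 aged barcodes and 328 in 3852 aged-GA barcodes. *Fcer1g* made up 4, 531 and 152 of them and *Fcmr* 6, 67 and 114. These are values only, and what the barcodes hold was not tested.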

How the results depend on the processing

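The count of members past 2-fold in aged over young was 2 and became 1 with the highest 8% of doublet scores left out (the automatic threshold marked no aged-GA cell, so this limit was chosen after the data were seen), with gates of 4 markers, with CPM outside haemoglobin, mitochondrial, ribosomal protein and immunoglobulin genes, with the mean of per-cell CPM and with a pseudocount of 10 CPM; in each, *Fcgr2b* in nonclassical monocytes was no longer past 2-fold. It became 4 when cells with markers of several classes were kept: *Fcgr1*, *Fcgr3*, *Fcgr4* and *Fcer1g*, all in B cells. *Fcgr2b* in nonclassical monocytes was not past 2-fold under that setting either. With no minimum of UMIs the count was 9. In aged-GA over aged the count was 0 and became 2 with gates of 4 markers (*Fcgr3* and *Fcgr4* in B cells), 4 when cells with markers of several classes were kept (*Fcgr1*, *Fcgr3*, *Fcgr4* and *Fcer1g* in B cells) and 5 with no minimum. The shares of all genes past 2-fold given above belong to the main setting. No such share is given for the other settings, so these counts are not a result about the members. No ratio past 2-fold changed sign. The *Fcer2a* ratio of the B cell split became 0.382, 0.305 and 0.354 in young, aged and aged-GA at 4 genes. No paired analysis was possible because each group is 1 library. Depth limits the young myeloid values, which rest on 47 monocytes.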

Other observations

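*Fcgr2b* UMIs were also found in T cells, where T cells had been taken as the background. In a division of Cd8 T cells chosen after the values were seen, those with UMIs of 2 or more of *Ccl5*, *Nkg7*, *Gzmk*, *Gzma*, *Cxcr3* and *Eomes* held 6 *Fcgr2b* UMIs in 496 young cells, 37 in 639 aged cells (9.68 CPM, 6.82 to 13.3) and 152 in 1272 aged-GA cells (15.5 CPM, 13.1 to 18.1). Cd8 T cells with fewer held 0 in 1505, 0 in 250 and 3 in 416, the last at 1.13 CPM (0.232 to 3.3). In the aged-GA library the ratio was 13.7 (4.61 to 67.3), while *Lyz2* and *S100a8* had ratios of 0.929 and 0.863 in the same cells and *Cd79a* stood at 21.1 and 25.2 CPM. *Fcer1g* and *Tyrobp* were higher in those aged-GA cells too, with ratios of 2.93 (1.87 to 4.82) and 1.9 (1.25 to 2.98). In the aged library these ratios were 1.62 (1.14 to 2.35) and 1.28 (0.87 to 1.93), and the interval of *Tyrobp* held 1. *Lyz2* and *S100a8* had ratios of 0.894 (0.734 to 1.09) and 1.26 (0.978 to 1.63) there. In young, *Fcer1g* stood at 19 CPM (14.8 to 23.9) in Cd8 T cells with 2 or more of these genes and 1.82 (1.04 to 2.96) in those with fewer. *Tyrobp* stood at 8.54 and 1.02 CPM and *Lyz2* at 1.34 and 0.797. *Gzma* and *Eomes* are also on the marker list of NK cells. The cells with 2 or more had median depths of 7234.5, 5767 and 7616.5 UMIs in young, aged and aged-GA. Those with fewer had 5650, 5751 and 6311. The parts of free RNA, of doublets and of depth in the T cell level of *Fcer1g* were not tested. Over all T cells there were 1.77 and 1.29 *Fcgr2b* UMIs for each *Fcmr* UMI in aged and aged-GA, beside 0.173 and 0.12 in B cells. Aged classical monocytes and basophils had 178.5 and 75, from 6 and 1 *Fcmr* UMIs. The part of free RNA from any of these classes was not tested. In young T cells, with 8 *Fcgr2b* UMIs, the ratio was 0.242 (0.0967 to 0.535), an interval that held the 0.112 of young B cells. The *Fcgr2b* levels of aged and aged-GA T cells are far below the 94.4 to 96.6 CPM of the B cells of the same libraries.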
